A study of Mus musculus with 20 samples.

Results

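Metformin and fine airborne particles (PM2.5) were given to obese mice alone and together, and this account is about the genes whose liver signal under both together differed from the sum of the differences under each alone. All 20 mice of the series enter, 5 in each of 4 groups, and 22 of 11844 genes tested were called. The mice were male and ob/ob, a strain that lacks leptin, overeats and becomes obese, so every group carries that mutation. The combined group had PM2.5 in a chamber for 6 hours a day over 2 weeks, with metformin in the drinking water. The PM2.5 group had the same exposure without the drug, the metformin group had the drug, and the filtered-air group had neither. The labels state no age, and give the metformin dose only as scaled to body weight. They name no air for the metformin group, which is taken here as unexposed. They also do not say whether unexposed mice sat in a chamber, so particles and chamber stay cannot be told apart.

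Metformin is a glucose-lowering drug that acts strongly on the liver, where it inhibits mitochondrial respiration and lowers glucose output. PM2.5 reaches the deep lung, and inhaled particles are known to alter liver metabolism and stress hormone levels in rodents. The liver of an ob/ob mouse makes fatty acids at a high rate, under the transcription factors SREBP-1c, which answers to insulin, and ChREBP, which answers to glucose. Since each agent was given with and without the other, an interaction can be computed: what metformin changed in exposed mice, less what it changed in unexposed mice. On the log2 scale used here, a gene with no interaction keeps the same fold difference for metformin with and without particles. The additive level named below is the combined-group signal that would hold if both agents' log2 differences from filtered air simply added.

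Each value is the log2 signal of 1 probe set on 1 array per mouse. The values ran from 1.55 to 19.03, and the negative-control probe sets had a mean median of 4.49 and a mean 95th percentile of 8.36. Arrays give no depth, so their number limits the precision. Hepatocyte markers averaged 17.57 to 17.76 per mouse, near the top of the array's range, in all 4 groups. They were 17.65 to 17.72 in combined and in PM2.5 mice, 17.64 to 17.76 with metformin and 17.57 to 17.63 in filtered air. Every treated mouse thus lay slightly above every filtered-air mouse. Arrays of the combined group correlated with each other at 0.9723 to 0.9931 across genes, PM2.5 arrays at 0.9878 to 0.9932, metformin arrays at 0.9853 to 0.9924 and filtered-air arrays at 0.9893 to 0.994. The combined group was thus the least even, and its mice 2, 4 and 5 stood farthest from their group mates (mean correlations 0.9828, 0.9853 and 0.9811, against 0.9878 or more in all other mice). The negative-control median averaged 4.593 in the combined group, 4.442 with PM2.5, 4.503 with metformin and 4.408 in filtered air. It was higher than in filtered air by 0.184 in the combined group and by 0.095 with metformin (adjusted p = 0.0198 for both, two-sided exact permutation tests, 5 comparisons). With this median as a covariate 44 genes were called, among them all 22.

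The interaction was tested with limma across the 11844 genes, with Benjamini-Hochberg adjustment. A gene was called where the adjusted p was under 0.05. Of all genes tested, 0.186% were called, 19 with a positive interaction (0.16%) and 3 with a negative one (0.0253%). The median interaction over all genes was 0.01, 50.7% of them lay above 0, and 1545 had an unadjusted p under 0.05. In simulated data with the same design, 46% of changes of 1 log2 unit and 96% of changes of 2 log2 units were called. It planted 100 changes of each size with 1 normal spread per gene, and 9 unchanged genes were called. The real data gave 22 calls and a wider combined group (median SD 0.30, against 0.24 in filtered air), so these shares need not hold there.

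The 22 genes fell into 5 shapes by their group means, with 0.5 log2 units counted as a difference from filtered air. The most frequent, with 10 genes, was a lower signal under each agent alone and a combined-group signal above the additive level. These were Aacs, Twnk, Anks4b, Gpam, Angptl8, Pnpla3, Fasn, Svil, Pde4b and Acly. In 6 genes, Synrg, Dcaf1, Nrf1, Ehmt1, Zfc3h1 and Ptprf, the signal was higher in the combined group and within 0.5 of filtered air under each agent alone. Angptl4 and Nr1i2 were higher under each agent alone and below the additive level together. In Ivns1abp, Depdc7 and Dnajb2, only 1 agent alone gave a difference of 0.5 or more, and the combined group did not. Rsf1 met none of these definitions.

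**Figure D1:**
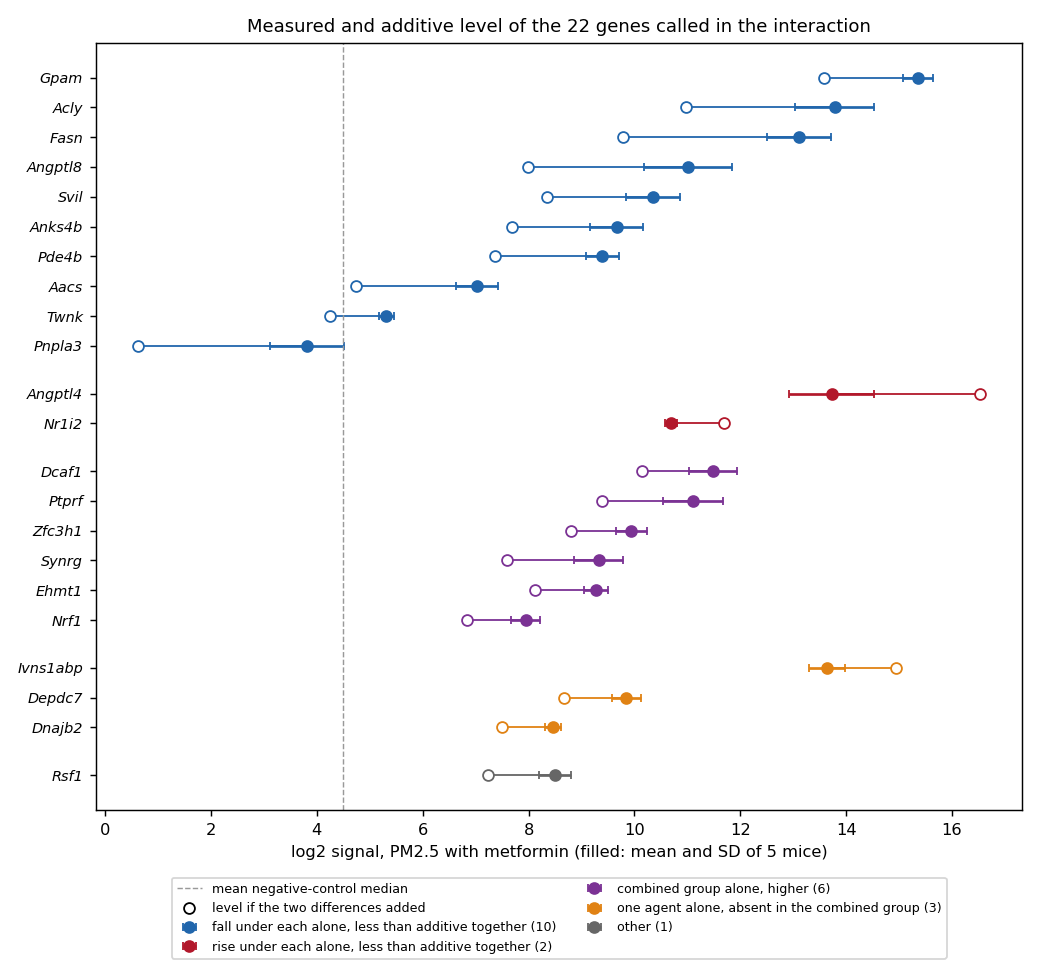
Log2 signal of the 22 called genes in the combined group. Filled points are the mean of 5 mice with SD bars, open points the additive level, and the dashed line the mean negative-control median of 4.49. For the 10 genes lower under each agent (blue) the measured level lies right of the open point, by 1.07 (Twnk) to 3.32 (Fasn), and for Angptl4 and Nr1i2 (red) it lies left of it.

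Promoter sequence is shown for 3 of the 22 genes: Fasn and Pnpla3, 2 lipid genes that were lower under each agent, and Synrg, which was higher in the combined group alone. Each window holds 300 bases around a start position in the RefSeq promoter table, on the gene's own strand, for GRCm38.p6 (the deposited values carry no genome build). Capitals mark 2 motifs, searched on both strands: the CCAAT box, which reads ATTGG where it lies on the opposite strand, and the E-box CACGTG. The Fasn window is chr11:120824498-120824797 on the minus strand, inside the full RefSeq gene span, which reaches upstream to 120825166. The others hold the first base of the gene span: Pnpla3 at chr15:84167566-84167865 and Synrg at chr11:83964181-83964480, both on the plus strand.
Fasn: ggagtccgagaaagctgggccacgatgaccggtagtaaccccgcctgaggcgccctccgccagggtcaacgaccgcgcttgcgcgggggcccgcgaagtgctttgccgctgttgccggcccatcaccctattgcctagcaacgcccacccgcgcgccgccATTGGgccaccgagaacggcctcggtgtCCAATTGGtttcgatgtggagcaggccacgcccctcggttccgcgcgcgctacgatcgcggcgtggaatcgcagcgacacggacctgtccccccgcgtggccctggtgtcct
Pnpla3: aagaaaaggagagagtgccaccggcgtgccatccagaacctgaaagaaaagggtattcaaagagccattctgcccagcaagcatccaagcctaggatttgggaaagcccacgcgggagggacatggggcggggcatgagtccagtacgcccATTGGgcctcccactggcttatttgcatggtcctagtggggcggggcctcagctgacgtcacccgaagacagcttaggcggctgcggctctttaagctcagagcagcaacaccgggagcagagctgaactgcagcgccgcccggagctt
Synrg: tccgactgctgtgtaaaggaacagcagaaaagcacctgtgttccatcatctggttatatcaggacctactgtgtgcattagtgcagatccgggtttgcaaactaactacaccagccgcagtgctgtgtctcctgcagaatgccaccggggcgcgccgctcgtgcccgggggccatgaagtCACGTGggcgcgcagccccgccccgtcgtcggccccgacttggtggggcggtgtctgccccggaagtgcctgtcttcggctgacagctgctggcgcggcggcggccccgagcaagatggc
CCAAT is bound by NF-Y, CACGTG is a core read by many helix-loop-helix factors, and TCACNCCAC is a form of the sterol element read by SREBP. Windows were searched for 9 of the 10 genes lower under each agent, 14 windows in all, and Svil was left out of the search. Of these, 7 held CCAAT, 0 held CACGTG and 0 held TCACNCCAC, against 37.4%, 7.15% and 1.24% of all 32851 windows. Of the 7 windows of the 6 genes higher in the combined group alone, 1 held CCAAT, 1 held CACGTG (Synrg) and 0 held TCACNCCAC. These matches describe the letters in these windows only.

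Of the 10 genes lower under each agent, 5 are on the list of de novo lipogenesis genes. Fasn, the fatty acid synthase, was lower in all 3 treated groups than in filtered air, yet in the combined group it stayed far above the additive level. Its signal was 13.17, 14.09, 12.43, 12.87 and 12.99 in the combined group, and 12.77, 12.28, 13.63, 14.28 and 14.71 with PM2.5. It was 11.91, 11.03, 11.50, 13.39 and 10.59 with metformin, and 15.30, 15.15, 15.51, 15.32 and 15.87 in filtered air. No treated mouse reached the lowest filtered-air mouse, and the combined group overlapped both single-agent groups. Metformin made a difference of -0.43 ± 0.45 under PM2.5 (adjusted p = 0.593) and -3.75 ± 0.45 without it (adjusted p = 8.17e-05, limma; ± is the standard error of a log2 difference from here on). The interaction was 3.32 ± 0.64 (95% interval 2.00 to 4.64, adjusted p = 0.03), so the metformin ratio under PM2.5 was 9.98 times the ratio without it. The combined group averaged 13.11 ± 0.61 (SD, n = 5) against an additive level of 9.79.

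Acly, which makes the cytosolic acetyl-CoA that Fasn uses, had the same order of groups. Its signal was 13.91, 14.78, 13.04, 13.06 and 14.13 in the combined group, and 13.95, 13.44, 14.29, 15.34 and 14.88 with PM2.5. It was 13.27, 12.73, 11.51, 13.39 and 11.82 with metformin, and 15.67, 15.70, 15.56, 16.16 and 16.70 in filtered air. All 15 treated mice lay below every filtered-air mouse, and the metformin mice were lowest on average. The metformin difference was -0.60 ± 0.40 under PM2.5 (adjusted p = 0.363) and -3.41 ± 0.40 without it (adjusted p = 8.17e-05). The interaction was 2.82 ± 0.57 (adjusted p = 0.0375), and the combined group averaged 13.78 against an additive level of 10.97.

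Aacs, which activates acetoacetate in the cytosol for lipid synthesis, had the lowest interaction p of all genes. Its signal was 7.33, 6.93, 7.20, 6.39 and 7.31 in the combined group, and 6.67, 7.05, 6.69, 6.996 and 7.40 with PM2.5. It was 6.79, 7.11, 6.83, 7.42 and 7.30 with metformin, and 9.51, 9.40, 9.48, 8.76 and 9.40 in filtered air. The 3 treated groups overlapped one another fully and lay below every filtered-air mouse. Against filtered air the signal fell by 2.28 in the combined group, by 2.35 with PM2.5 and by 2.22 with metformin (standard error 0.20 each; adjusted p = 5.56e-07, 6.31e-07 and 1.83e-06). The interaction was 2.29 ± 0.28 (adjusted p = 0.000491). All Aacs means in treated groups, 6.96 to 7.09, lay below the negative controls' mean 95th percentile of 8.36. The additive level of 4.74 lay close to the controls' median of 4.49, so a combined mean at that level could hardly have been told from background.

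Gpam, the mitochondrial acyltransferase that begins glycerolipid synthesis, was 15.53, 15.52, 14.996, 15.12 and 15.60 in the combined group, and 14.82, 15.04, 15.14, 15.53 and 15.91 with PM2.5. It was 14.78, 14.82, 14.67, 15.24 and 13.93 with metformin, and 16.14, 16.04, 16.47, 16.44 and 16.85 in filtered air. Every treated mouse lay below every filtered-air mouse. The combined group was higher than metformin alone by 0.67 ± 0.23 (adjusted p = 0.0474) and differed from PM2.5 alone by 0.07 ± 0.23 (adjusted p = 0.887). The interaction was 1.77 ± 0.32 (adjusted p = 0.0224).

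Angptl8 encodes a secreted protein that takes part in the control of lipoprotein lipase, and feeding induces it. Its signal was 11.86, 10.58, 11.20, 9.80 and 11.62 in the combined group, and 9.73, 9.69, 10.32, 10.90 and 10.85 with PM2.5. It was 10.72, 10.92, 10.83, 12.48 and 10.98 with metformin, and 13.36, 13.98, 13.52, 12.53 and 14.04 in filtered air. The treated groups overlapped, and metformin mouse 4, at 12.48, lay just below the lowest filtered-air mouse. The interaction was 3.02 ± 0.55 (adjusted p = 0.0224), and the combined group averaged 11.01 against an additive level of 7.99.

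Pnpla3, a lipid droplet protein of hepatocytes, had an interaction that the range of the array limits. Its signal was 3.30, 4.26, 3.23, 3.46 and 4.83 in the combined group, and 4.35, 3.83, 5.40, 6.62 and 6.02 with PM2.5. It was 4.13, 3.94, 3.31, 3.78 and 3.12 with metformin, and 7.30, 8.63, 8.43, 8.11 and 8.92 in filtered air. All metformin mice and 4 of 5 combined mice were dimmer than the negative controls' 4.49. The additive level of 0.62 lies below the lowest value on any array, 1.55, so a combined-group mean at the additive level could not have been measured. The fitted interaction was 3.19 ± 0.61 (adjusted p = 0.03). With the combined mean of 3.82 below the negative controls, its size is not a measured fold.

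**Figure D2:**
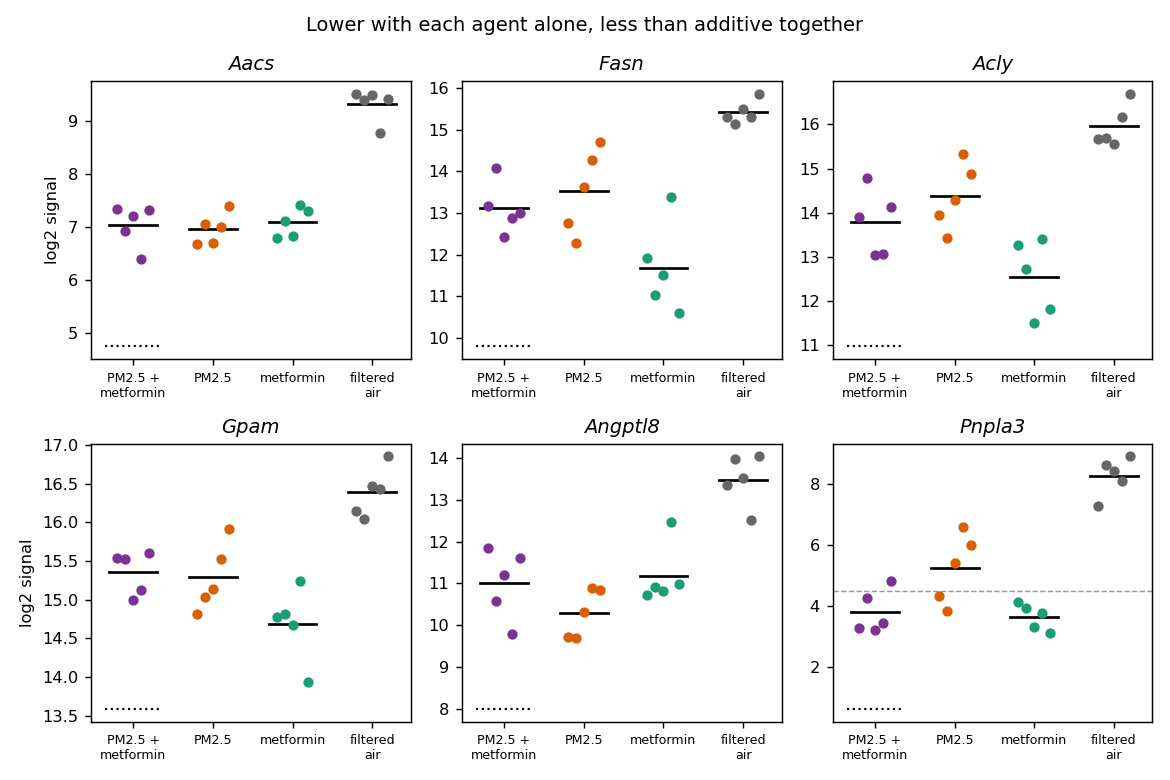
Log2 signal of 6 lipid genes by group. Points are single mice, bars group means, dotted lines the additive level for the combined group, and the dashed line in the Pnpla3 panel the mean negative-control median of 4.49. In each panel every treated mouse lies below every filtered-air mouse, and the combined mean lies above the dotted line.

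The remaining 4 genes of this shape are not lipid enzymes. Twnk, the helicase of mitochondrial DNA replication, was 5.18 to 5.54 in combined mice, 4.67 to 5.03 with PM2.5, 4.52 to 4.99 with metformin and 5.12 to 5.58 in filtered air. The combined group overlapped filtered air and lay above every single-agent mouse, with an interaction of 1.07 ± 0.18 (adjusted p = 0.0159). All Twnk means, 4.78 to 5.37, lay close to the negative-control median of 4.49 and below the controls' mean 95th percentile of 8.36. The additive level of Twnk, 4.25, lay below that median, so a combined mean at that level could not have been told from background. Anks4b, an ankyrin-repeat scaffold protein of epithelial cells, averaged 9.66 ± 0.50 in the combined group, 8.64 ± 0.41 with PM2.5, 10.23 ± 0.42 with metformin and 11.18 ± 0.28 in filtered air (SD, n = 5). Its interaction was 1.98 ± 0.34 (adjusted p = 0.0159), and the combined group was higher than PM2.5 alone by 1.03 ± 0.24 (adjusted p = 0.00936). Svil, the actin- and membrane-binding protein supervillin, averaged 10.34 ± 0.51 in the combined group, 9.32 ± 0.62 with PM2.5, 9.42 ± 0.50 with metformin and 10.40 ± 0.23 in filtered air (SD, n = 5). It fell under PM2.5 alone by 1.08 ± 0.28 (adjusted p = 0.0281), and its difference under metformin alone, -0.99 ± 0.28, missed the threshold (adjusted p = 0.0538). The combined group overlapped filtered air, and the interaction was 2.00 ± 0.39 (adjusted p = 0.0356). Pde4b, a cyclic AMP phosphodiesterase, averaged 9.39 ± 0.32 in the combined group, 9.48 ± 0.64 with PM2.5, 8.72 ± 0.43 with metformin and 10.84 ± 0.55 in filtered air, and its interaction was 2.03 ± 0.41 (adjusted p = 0.0375).

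Of the 22 genes, 2 rose and 12 fell with PM2.5 against filtered air, where 5.17% of all genes were called (2.67% higher, 2.5% lower). With metformin 3 rose and 9 fell, where 3.15% of all were called (1.26% higher, 1.89% lower). In the combined group against filtered air 9 rose and 8 fell, where 34.9% of all were called (18.7% higher, 16.2% lower). These comparisons share mice with the interaction and are given as description. Against PM2.5 alone 12 of the 22 were higher in the combined group and 2 lower (11.7% of all genes called, 6.95% higher and 4.73% lower), and against metformin alone 12 were higher and 1 lower (16.3% of all genes called, 9.69% higher and 6.63% lower).

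In the 6 genes that were higher in the combined group alone, all 5 combined mice lay above all 15 others, which held, in 1 direction or the other, for 2.18% of all genes tested (258 genes). The call and the shape come from these same values, so this separation is partly built in and adds no support. Synrg encodes a synergin that binds the AP-1 clathrin adaptor. Its signal was 8.999, 9.33, 9.16, 10.11 and 9.01 in the combined group, and 7.38, 7.67, 7.51, 7.32 and 7.68 with PM2.5. It was 7.56, 7.34, 7.89, 7.51 and 7.64 with metformin, and 7.64, 7.22, 7.496, 7.70 and 7.48 in filtered air. The 3 other groups could not be separated, and the lowest combined mouse lay above the highest of them by more than 1 log2 unit. The combined group was 3.52-fold above filtered air (adjusted p = 1.68e-06), and the interaction was 1.73 ± 0.25 (95% interval 1.21 to 2.25, adjusted p = 0.00378).

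Dcaf1, a substrate receptor of the CUL4 ubiquitin ligase, was 11.90, 11.44, 11.86, 11.45 and 10.78 in the combined group, and 10.03, 10.17, 10.27, 10.04 and 10.38 with PM2.5. It was 10.14, 10.46, 10.34, 10.40 and 10.24 with metformin, and 10.23, 10.35, 10.43, 10.24 and 10.48 in filtered air. Combined mouse 5 was the nearest to the other groups. The interaction was 1.34 ± 0.23 (adjusted p = 0.0159). Ptprf, the receptor tyrosine phosphatase LAR, was 11.54, 11.25, 11.004, 11.57 and 10.19 in the combined group, 8.78 to 9.81 with PM2.5, 9.18 to 9.65 with metformin and 8.56 to 9.72 in filtered air. Mouse 5 again had the lowest combined signal, and the interaction was 1.72 ± 0.36 (adjusted p = 0.0482).

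Nrf1, the nuclear respiratory factor that drives nuclear genes of mitochondria, averaged 7.94 ± 0.28 in the combined group, 7.21 ± 0.19 with PM2.5, 6.87 ± 0.14 with metformin and 7.25 ± 0.25 in filtered air (SD, n = 5). Its interaction was 1.11 ± 0.21 (adjusted p = 0.03), and all 4 means lay below the negative controls' mean 95th percentile. Ehmt1, a histone H3 lysine methyltransferase, was 8.97 to 9.50 in combined mice, 7.79 to 8.46 with PM2.5, 7.99 to 8.63 with metformin and 8.03 to 8.65 in filtered air. Its interaction was 1.15 ± 0.23 (adjusted p = 0.0385). Zfc3h1, a zinc-finger protein of nuclear RNA decay, was 9.58 to 10.33 in combined mice, 8.47 to 9.27 with PM2.5, 8.93 to 9.53 with metformin and 9.11 to 9.39 in filtered air. The lowest combined mouse lay just above the highest metformin mouse, and the interaction was 1.14 ± 0.24 (adjusted p = 0.0448).

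**Figure D3:**
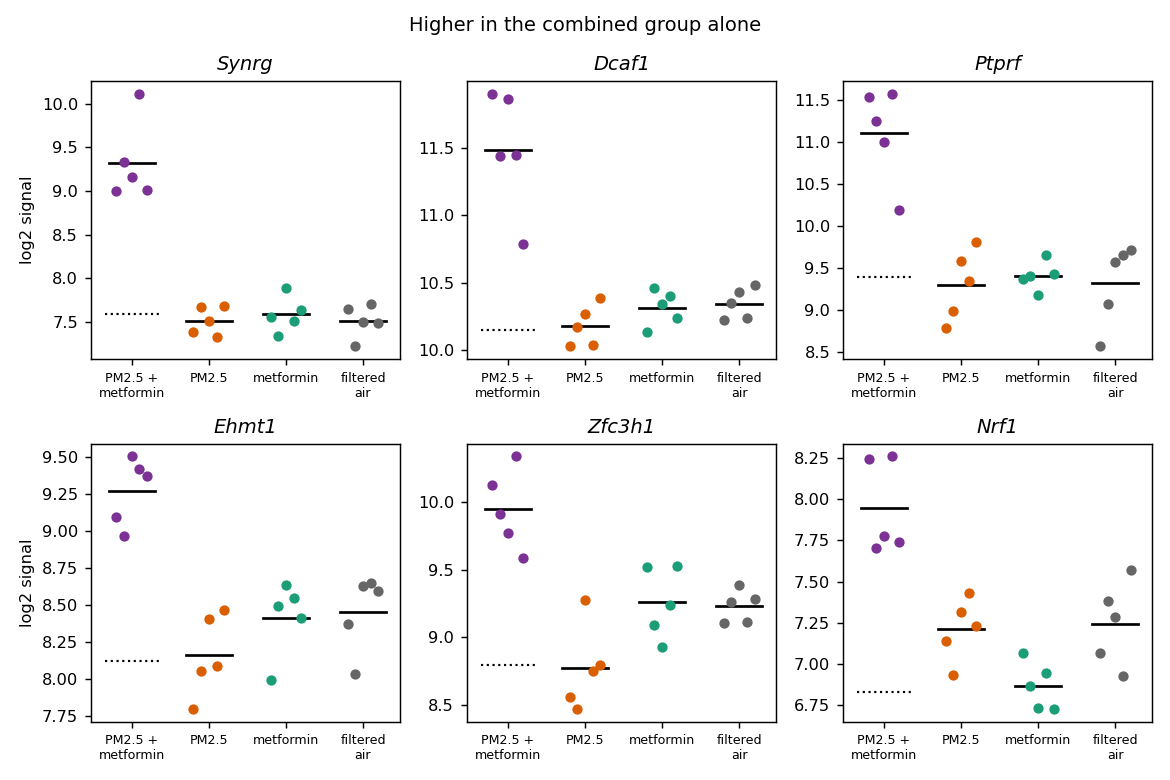
Log2 signal of the 6 genes higher in the combined group alone, by group. Points are single mice, bars group means and dotted lines the additive level. All 5 combined mice lie above the 15 others in each panel, with the widest gap in Synrg and the narrowest in Zfc3h1.

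Angptl4 and Nr1i2 rose under each agent alone, and together they lay below the additive level. Angptl4, a secreted inhibitor of lipoprotein lipase that fasting, fatty acids and glucocorticoids induce, was 13.91, 12.41, 14.48, 14.20 and 13.64 in the combined group, and 14.70, 14.30, 14.74, 14.60 and 14.61 with PM2.5. It was 13.06, 14.11, 14.55, 13.48 and 15.18 with metformin, and 10.93, 12.44, 12.47, 12.24 and 12.58 in filtered air. Combined mouse 2 lay within the filtered-air range, and the other 14 treated mice lay above it. Against filtered air the rise was 1.596 ± 0.38 in the combined group (adjusted p = 0.00275), 2.46 ± 0.38 with PM2.5 (adjusted p = 0.00138) and 1.94 ± 0.38 with metformin (adjusted p = 0.00708). The interaction was -2.80 ± 0.54 (95% interval -3.92 to -1.69, adjusted p = 0.03), and the combined group averaged 13.73 against an additive level of 16.53. Nr1i2, the xenobiotic receptor PXR, was 10.56 to 10.83 in combined mice, 10.61 to 11.28 with PM2.5, 10.48 to 10.94 with metformin and 9.76 to 10.25 in filtered air. The 3 treated groups overlapped above filtered air, and the interaction was -0.998 ± 0.20 (adjusted p = 0.0356).

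In Ivns1abp, Depdc7 and Dnajb2, 1 agent alone differed from filtered air by at least 0.5 and the combined group did not. The other agent moved each gene the same way, short of 0.5. PM2.5 moved Ivns1abp by 0.41 ± 0.16 (limma adjusted p = 0.13). Metformin moved Depdc7 by -0.46 ± 0.17 (adjusted p = 0.136) and Dnajb2 by -0.46 ± 0.14 (adjusted p = 0.0765). With 0.3 counted as a difference this shape was empty, and 13 genes were lower and 3 higher under each agent alone. At that size 4 genes, against 6 at 0.5, were higher in the combined group alone. Nrf1 (-0.38 with metformin) and Zfc3h1 (-0.46 with PM2.5) were then lower under 1 agent and higher in the combined group. Ivns1abp, a kelch protein first found as a partner of an influenza protein, averaged 13.64 ± 0.33 in the combined group, 14.25 ± 0.25 with PM2.5, 14.53 ± 0.16 with metformin and 13.84 ± 0.21 in filtered air (SD, n = 5). It rose with metformin alone by 0.69 ± 0.16 (adjusted p = 0.0213), and its interaction was -1.31 ± 0.23 (adjusted p = 0.0159). Depdc7 averaged 9.85 ± 0.27 in the combined group, 9.13 ± 0.32 with PM2.5, 9.59 ± 0.22 with metformin and 10.04 ± 0.21 in filtered air. It fell with PM2.5 alone by 0.91 ± 0.17 (adjusted p = 0.00351), and the interaction was 1.18 ± 0.24 (adjusted p = 0.0375). Dnajb2, an HSP40 co-chaperone, fell with PM2.5 alone by 0.65 ± 0.14 (adjusted p = 0.0106), averaged 8.46 in the combined group and 8.61 in filtered air, and had an interaction of 0.96 ± 0.20 (adjusted p = 0.0482). Rsf1, a subunit of a chromatin remodelling complex, averaged 8.50 ± 0.30 in the combined group, 7.64 ± 0.22 with PM2.5, 7.62 ± 0.16 with metformin and 8.04 ± 0.20 in filtered air, with an interaction of 1.27 ± 0.21 (adjusted p = 0.0159).

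The threshold separated genes of like size. Zfc3h1, Dnajb2 and Ptprf lay just inside it. Creb3l3, a liver transcription factor of fasting that regulates triglyceride handling (-1.07), Nr1h5, an FXR-like nuclear receptor (1.12), and Ska2, a kinetochore protein (1.00), lay just outside it, each with an adjusted p of 0.0508. The additive level of Nr1h5, 3.70, lay below the negative-control median of 4.49. With an adjusted p under 0.1, 96 genes were called (0.811%): 24 lower under each agent and above the additive level, 26 higher and 5 lower in the combined group alone, and 10 higher under each agent and below the additive level. The other 31 of the 96 were of other shapes. Acacb and Mid1ip1, which encode a carboxylase of malonyl-CoA synthesis and its activator, joined the first set (both were chosen after their values were seen) with interactions of 1.71 ± 0.40 (adjusted p = 0.0761) and 2.49 ± 0.59 (adjusted p = 0.0842). Mid1ip1 was dim, at 4.45 to 5.83 in combined mice and 3.98 to 5.41 with PM2.5. Herpud1, a protein of endoplasmic reticulum degradation, and Txnip, which binds thioredoxin and curbs glucose uptake, joined the last with -1.08 ± 0.24 (adjusted p = 0.0646) and -2.08 ± 0.48 (adjusted p = 0.0761). Xpo6, the export receptor of actin, had all 5 combined mice above the 15 others, at 11.46 ± 0.44 in the combined group, 9.99 ± 0.25 with PM2.5, 9.60 ± 0.14 with metformin and 9.36 ± 0.39 in filtered air (SD, n = 5), but missed the threshold (interaction 1.23 ± 0.28, adjusted p = 0.0744).

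Gene lists are described here by counts and medians, beside all genes tested, of which 0.186% were called and 50.7% lay above 0, with a median of 0.01. Of 20 tested members of the de novo lipogenesis list, 5 were called in the interaction and all 5 were positive: Aacs, Gpam, Pnpla3, Fasn and Acly. The list is broad: it also holds Gpam, of glycerolipid synthesis, and Pnpla3, a lipid droplet protein, so the count is not one of fatty acid synthesis enzymes alone. The list median was 1.16, and 18 of 20 members lay above 0. The median difference from filtered air was -1.43 in the combined group, -0.96 with PM2.5 and -1.70 with metformin. In the combined group 16 of 20 fell against filtered air (16.2% of all genes), beside 7 with PM2.5 (2.5% of all) and 14 with metformin (1.89% of all). Acaca, the main carboxylase of fatty acid synthesis, had an interaction of 1.77 ± 0.53 (adjusted p = 0.15) and averaged 10.93 ± 0.64 in the combined group, 12.12 ± 0.63 with PM2.5, 10.94 ± 0.66 with metformin and 13.90 ± 0.73 in filtered air. Elovl6, which lengthens the fatty acid chain, had 0.91 ± 0.57 (adjusted p = 0.532), and Mlxipl, which encodes ChREBP, 1.13 ± 0.35 (adjusted p = 0.16). Scd1, the desaturase, had -0.01 ± 0.20 (adjusted p = 0.99) and a signal of 18.04 ± 0.25 in the combined group and 18.34 ± 0.07 in filtered air, near the top of the array's range.

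Cholesterol synthesis genes had positive interactions that missed the threshold. All 18 tested members lay above 0, with a median of 1.08, and 0 were called (limma), while 1545 genes of all had an unadjusted p under 0.05. The median difference from filtered air was -0.75 in the combined group, -0.57 with PM2.5 and -1.41 with metformin. Mvd, an enzyme of the mevalonate pathway, averaged 6.38 ± 0.91 in the combined group, 6.58 ± 0.47 with PM2.5, 6.25 ± 1.07 with metformin and 8.63 ± 0.43 in filtered air (SD, n = 5), and its interaction was 2.17 ± 0.60 (adjusted p = 0.129). The additive level of Mvd, 4.20, lay below the negative-control median of 4.49. A combined mean at that level could not have been told from background. Fdps, which makes farnesyl pyrophosphate, had 2.14 ± 0.79 (adjusted p = 0.238). Its 95% interval was 0.50 to 3.77.

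Targets of the glucocorticoid receptor lay on the other side of 0. Of 16 tested, 0 lay above 0 and 1, Angptl4, was called, and the median was -0.77. The median difference from filtered air was 1.54 in the combined group, 1.24 with PM2.5 and 0.87 with metformin. Pck1, the rate-limiting enzyme of gluconeogenesis, was 16.46, 17.02, 16.90, 16.81 and 16.31 in the combined group, and 16.46, 16.70, 16.05, 16.48 and 16.74 with PM2.5. It was 16.31, 16.40, 16.51, 16.35 and 16.90 with metformin, and 14.86, 14.81, 15.06, 15.99 and 15.38 in filtered air. The 3 treated groups overlapped above filtered air, and the interaction of -1.06 ± 0.29 missed the threshold (adjusted p = 0.119). Sgk1, a kinase induced by glucocorticoids, was high with PM2.5 alone: it averaged 8.999 ± 0.23 in the combined group, 10.24 ± 0.36 with PM2.5, 8.84 ± 0.13 with metformin and 9.02 ± 0.48 in filtered air. It fell by 1.24 ± 0.20 in the combined group against PM2.5 (adjusted p = 0.000996), yet its interaction of -1.05 ± 0.28 was not called (adjusted p = 0.11). Cdkn1a, whose product p21 halts the cell cycle, had a wide interaction of -2.55 ± 1.28 (95% interval -5.21 to 0.12, adjusted p = 0.409). The metallothioneins Mt1 and Mt2, which bind zinc, had -0.87 ± 0.50 (adjusted p = 0.49) and -1.56 ± 0.84 (adjusted p = 0.45), and the clock gene Per1 had -0.60 ± 0.60 (adjusted p = 0.729). The additive levels of Mt1 and Mt2, 18.29 and 18.99, lay near the highest value on any array, 19.03, so the range of the array may limit both.

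Fatty acid oxidation genes and other PPAR-alpha targets had a median of -0.43, with 3 of 31 above 0 and 1 called (Angptl4). Cpt1a, which admits fatty acids to mitochondria, averaged 14.67 ± 0.30 in the combined group, 13.89 ± 0.51 with PM2.5, 14.19 ± 0.35 with metformin and 12.81 ± 0.37 in filtered air, with an interaction of -0.61 ± 0.33 (adjusted p = 0.449). Pdk4, which shuts pyruvate out of oxidation, averaged 8.38 ± 0.95 in the combined group, 11.05 ± 0.88 with PM2.5, 8.13 ± 0.44 with metformin and 9.39 ± 0.49 in filtered air. Its interaction was -1.40 ± 0.57 (adjusted p = 0.296). Subunits of mitochondrial complex I, the complex that metformin is known to inhibit, had small positive values: 32 of 36 lay above 0, the median was 0.30 and 0 were called. Of 11 tested genes of AMPK and metformin transport 0 were called, and the median was 0.04. Chaperones of the endoplasmic reticulum had a median of -0.44 with 0 of 20 called, and gluconeogenesis -0.02 with 0 of 17 called. Other named genes were not called: Cyp7a1, the rate-limiting enzyme of bile acid synthesis (1.10 ± 0.53, adjusted p = 0.383), Pklr (0.75 ± 0.51, 0.566), Dbp (0.35 ± 0.45, 0.805), Fgf21 (0.41 ± 0.73, 0.866), G6pc (-0.43 ± 0.28, 0.553), Thrsp (0.68 ± 0.29, 0.318) and Igfbp1 (0.09 ± 0.49, 0.965).

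Hepatokines and secreted regulators held both signs, with Angptl8 positive and Angptl4 negative among 17 tested, and a median of 0.09. Actin, junction and scaffold genes had 1 of 17 called, Ptprf, with 15 above 0 and a median of 0.32. Mitochondrial complexes II to V had 0 of 38 called and a median of 0.25, and cytosolic ribosomal proteins 0 of 33 and 0.13. In splicing and nuclear export 0 of 20 were called and the median was 0.09. Its members of lowest p were Xpo6 and the export receptor Xpo7, which averaged 10.60 ± 0.24 in the combined group, 9.69 ± 0.18 with PM2.5, 9.92 ± 0.19 with metformin and 9.88 ± 0.20 in filtered air (SD, n = 5). All 5 combined mice lay above the 15 others for Xpo7, whose interaction of 0.88 ± 0.20 missed the threshold (adjusted p = 0.0744). NRF2 targets and antioxidant enzymes had 0 of 26 called (median 0.04), interferon-induced genes 0 of 23 (median -0.20) and acute phase genes 0 of 26 (median -0.07). Xpo7 was chosen after its values were seen.

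Genomic span and mean signal of the shapes are given here as description and were not tested. Mean signal comes from the same values as the shapes. The genes higher in the combined group alone had a median genomic span of 81.7 kb and a median mean signal of 8.94, and those lower under each agent alone 31.6 kb and 9.90. Over all 11844 genes the medians were 22.9 kb and 7.81.

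**Figure D4:**
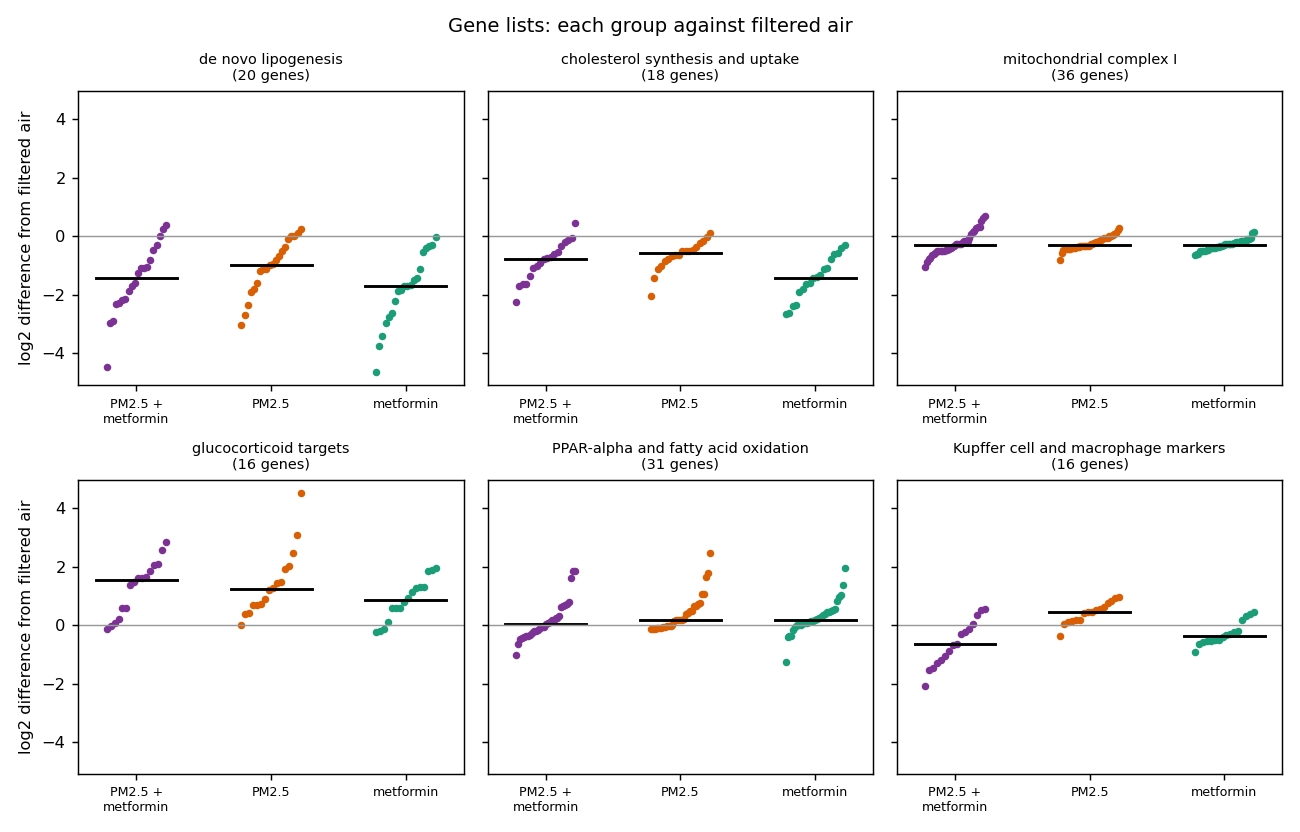
Log2 difference from filtered air of each tested member of 6 gene lists, in the combined group, with PM2.5 and with metformin. Points are genes and bars are list medians. In lipogenesis the combined median of -1.43 lies between -0.96 with PM2.5 and -1.70 with metformin, and glucocorticoid targets have medians of 1.54, 1.24 and 0.87 in that order.

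Markers of Kupffer cells, the macrophages of the liver, were lower in most combined mice than with PM2.5 or in filtered air. Less RNA per cell and fewer cells cannot be told apart in whole liver. Their mean signal was 7.84, 6.52, 7.38, 7.28 and 9.05 in combined mice 1 to 5, and 8.35, 8.16, 8.91, 9.26 and 8.67 in PM2.5 mice. It was 8.34, 7.83, 7.97, 7.62 and 8.10 in metformin mice, and 8.23, 8.23, 8.17, 8.61 and 7.99 in filtered-air mice. Combined mouse 5 was high, and its 4 group mates lay below all PM2.5 mice and all filtered-air mice. Metformin mice 2, 3 and 4 also lay below all filtered-air mice, and combined mouse 1 lay within the metformin range. Of 18 listed markers 16 were tested. In the combined group 8 of the 16 fell against PM2.5 (4.73% of all genes), 6 against filtered air (16.2% of all) and 1 against metformin (6.63% of all). In the interaction 0 of 16 were called, 15 of 16 lay below 0 and the median was -0.76. Vsig4, a complement receptor of Kupffer cells, had an interaction of -2.00 ± 0.67 (adjusted p = 0.197), and C1qb, a subunit of complement C1q, -1.65 ± 0.62 (adjusted p = 0.251). Endothelial markers had 6 of 13 members lower in the combined group against PM2.5 (4.73% of all genes) and 3 against filtered air (16.2% of all). Against metformin 2 were lower (6.63% of all) and 1 higher (9.69% of all), and 0 were called in the interaction. Their mean signal was 8.30 to 9.24 in combined mice, 9.18 to 9.51 with PM2.5, 8.61 to 8.99 with metformin and 8.89 to 9.24 in filtered air. Their part in the interactions was not tested.

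The number of genes called moved with single mice. Without combined mouse 5, 289 of 11843 genes were called (2.44%), 140 higher (1.18%) and 149 lower (1.26%), and all 22 genes named above were among them. Combined-group-alone shapes then numbered 76 higher and 67 lower, and 27 genes were lower under each agent and above the additive level. In lipogenesis 7 of 20 members were then called, and in the Kupffer list 5 of 15, all lower, with Vsig4 at -2.62 ± 0.42 (adjusted p = 0.00269) and C1qb at -2.29 ± 0.31 (adjusted p = 0.000894). In endothelial markers 4 of 13 were then called lower, and of PPAR-alpha genes 5 of 31. The labels give mouse 5 the same group and treatment as its mates. Vsig4 and C1qb were chosen after their values were seen.

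Leaving out other single mice gave 7 to 30 calls. Calls numbered 30 with PM2.5 mouse 4 left out, 29 without filtered-air mouse 4, 26 without PM2.5 mouse 3 and 24 without combined mouse 2 or 3. It was 7 without PM2.5 mouse 1, PM2.5 mouse 2 or metformin mouse 3, and 8 without metformin mouse 2 or filtered-air mouse 5. It was 11 without metformin mouse 5 or filtered-air mouse 3, 12 without combined mouse 4 and 14 without filtered-air mouse 2, against 22 with all mice. The lipogenesis count ranged from 1 without PM2.5 mouse 1, PM2.5 mouse 2, metformin mouse 3 or filtered-air mouse 5 to 7 without combined mouse 5. Aacs, Synrg, Twnk, Rsf1, Anks4b, Dcaf1 and Ivns1abp were called in all 20 fits that left out 1 mouse. Gpam was called in 16 of the 20 fits, Angptl8 in 15, Angptl4 in 14, Pnpla3 in 12, Fasn and Nr1i2 in 11 and Svil and Nrf1 in 10. Pde4b was called in 9, Acly in 7, Depdc7 and Ehmt1 in 6, Zfc3h1 in 5 and Dnajb2 and Ptprf in 4. The size moved less than the call: Fasn ranged from 3.01 to 3.75 over the 20 fits, Acly from 2.56 to 3.06 and Ptprf from 1.59 to 1.95. Without combined mice 2 and 4, whose negative controls were brightest at 4.79 and 4.69, 10 genes were called, among them 6 of the 22: Aacs, Synrg, Twnk, Anks4b, Dcaf1 and Angptl8.

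**Figure D5:**
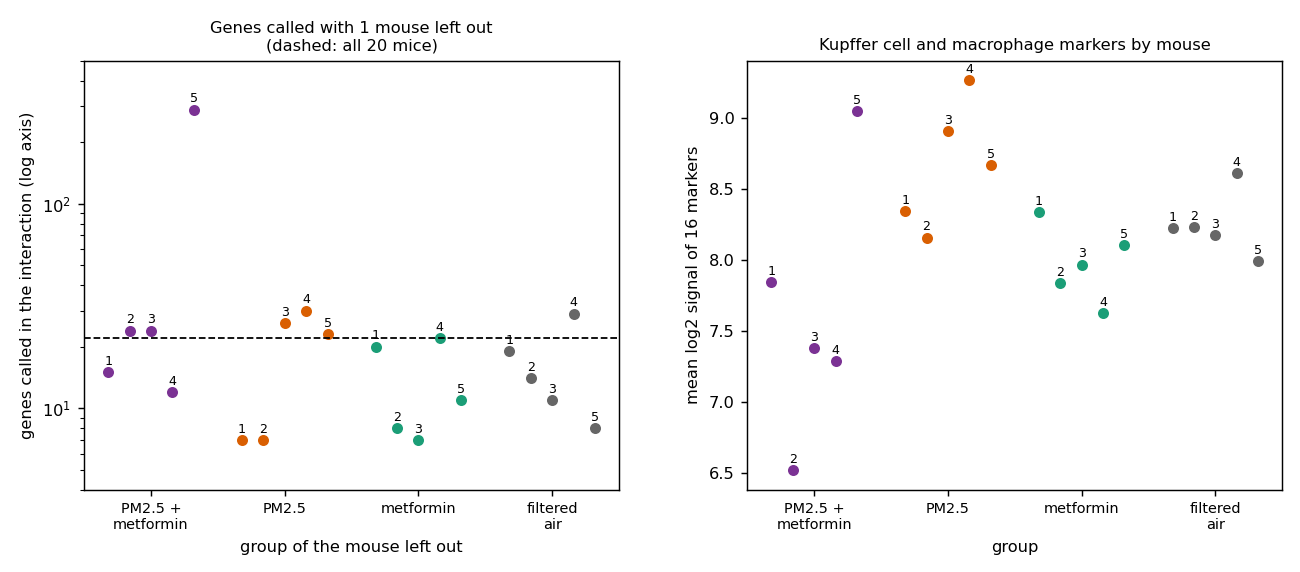
Left, the number of genes called in the interaction with 1 mouse left out, on a log axis, by the group of that mouse, with mouse numbers beside the points and a dashed line at the 22 called with all 20 mice. Right, the mean log2 signal of the 16 Kupffer cell and macrophage markers in each mouse. Combined mouse 5 gives 289 calls when left out and has the highest marker signal of its group, 9.05.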

How the data were processed

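Liver RNA of 20 mice was hybridised to 20 single-channel arrays. The deposited values are log2 signals, 1 per probe set, and Affymetrix Expression Console produced them per the submitters' processing notes. The summary method, version and genome build are not given in the sources used here. The probe sets are not those of the array that the series text names, so genes were taken from the platform annotation that lists them. Of 28846 probe sets, 6640 controls were left out, 19572 had 1 gene, 0 had several and 2634 had none. All 19572 symbols matched RefSeq. For 55 of 19505 genes the brightest of several probe sets was used. Genes at or below the 40th percentile of mean signal (4.05, below the negative-control median) were left out, which left 11844.

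Limma 3.58.1 in R 4.3.3 fitted 4 group means (residual df 16, prior df 5.68), two-sided, with Benjamini-Hochberg adjustment over all genes, checked on simulated data. One variance per gene serves all groups. Named genes are, among called genes, the 15 largest interactions each way (no predicted genes), up to 5 per shape and each list's member of lowest p, then 3 genes either side of the threshold and 36 fixed genes where tested. The members and the 45 lists were chosen with earlier results of these data known. Mice are numbered in deposit order and pair nothing. The labels do not say that mice were housed or processed separately, so p-values measure only the spread between these samples. Alternatives changed the filter, normalization, probe set choice, weights, variance model, threshold, size for a shape, a control-signal covariate and the mice included.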

Additional observations from a re-analysis of the deposited data

Results flagged for a closer look

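The metformin difference under PM2.5 differed from the metformin difference without it, by the interaction test (limma, adjusted p under 0.05), in 22 genes. The log2 interactions were Fasn 3.32, Pnpla3 3.19, Angptl8 3.02, Acly 2.82, Aacs 2.29, Pde4b 2.03, Svil 2.00, Anks4b 1.98, Gpam 1.77, Synrg 1.73 and Ptprf 1.72. Smaller positive values were Dcaf1 1.34, Rsf1 1.27, Depdc7 1.18, Ehmt1 1.15, Zfc3h1 1.14, Nrf1 1.11, Twnk 1.07 and Dnajb2 0.96, and the negative ones were Nr1i2 -0.998, Ivns1abp -1.31 and Angptl4 -2.80. For Pnpla3, Aacs and Twnk the additive level lay close to or below the negative-control median of 4.49, so background limits these sizes. The value for Pnpla3 is not a measured fold.

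A single mouse stood far from its group in 5 of 92 groups of values examined, where chance flags about 1 in 20. Metformin mouse 4 had an Angptl8 signal of 12.48, against 10.72 to 10.98 in its group mates. PM2.5 mouse 2 had a Twnk signal of 5.03, against 4.67 to 4.77. Filtered-air mouse 4 had an Aacs signal of 8.76, against 9.40 to 9.51, and a Dnajb2 signal of 8.82, against 8.52 to 8.60. Filtered-air mouse 1 had an Angptl4 signal of 10.93, against 12.24 to 12.58.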

How the results depend on the processing

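No paired analysis was possible because the labels give the groups no shared replicate numbers. All 22 genes kept the sign of their interaction in every alternative run that tested them, and the number called moved widely. With the filter at the 60th percentile 20 of the 22 were tested. With array weights 108 genes were called, 73 higher and 35 lower, with 24 lower under each agent alone, 29 higher in the combined group alone and 12 higher under each agent alone. With an adjusted p under 0.1 it was 96, 68 and 28, with 24, 26 and 10 in those shapes. With the negative-control covariate it was 44, 34 and 10, with 10 higher in the combined group alone and 6 higher under each agent. Without combined mice 2 and 4 (chosen after seeing the data) it was 10, 9 and 1, with 5, 2 and 1. Quantile normalization called 12 higher, with 3 in the combined-group-alone shape. The lower count was 6 with the filter at the 60th percentile, 5 with all probe sets, 5 with a trended robust variance and 6 with group weights. With shapes cut at 1 log2 unit, 3 genes were higher in the combined group alone and 1 under each agent; with interactions of at least 1, the last count was also 1. Leaving out each mouse gave 7 to 289 genes, 6 to 140 higher and 1 to 149 lower, with 3 to 27 lower under each agent, 2 to 76 higher in the combined group alone and 0 to 17 higher under each agent. Signs turned only in uncalled genes. Scd1 was 0.0858 with quantile normalization and 0.00142 with median centring, and -0.136 to 0.046 with 1 mouse left out. Igfbp1 was -0.12 with array weights, -0.17 without combined mice 2 and 4, and -0.12 to 0.307 with 1 mouse left out. Dbp was -0.14 without combined mice 2 and 4, and Fgf21 -0.0249 to 0.729 with 1 mouse left out. On the linear scale Per1 was 22.8, Dbp -3421 and Igfbp1 -1761 signal units. With the mean of the negative controls in place of their median, the combined group lay 0.19 above filtered air (adjusted p = 0.0595, exact permutation test). The cause of these moves was not tested.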
